A study of Mus musculus with 6 samples.

Results

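The SR proteins and the heterogeneous nuclear ribonucleoproteins (hnRNPs) are the 2 large families of proteins that bind pre-mRNA and bias where it is spliced, and their transcripts were followed here in mouse cells with and without knockdown of Ifit1. The members are defined by name, as protein-coding genes whose symbol starts with Srsf and a digit or with Hnrnp, and the naming rule uses no measured value. This gave 32 of the 19877 genes in the deposited table, 11 Srsf genes and 21 Hnrnp genes. Of these, 30 were expressed well enough to be tested (10 Srsf and 20 Hnrnp), and Srsf12 and Hnrnpa1l2-ps2 were not.

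The cells are labelled ADSCs, which usually stands for stem cells derived from adipose tissue (multipotent stroma of fat), and all are labelled WT in genotype. The 2 groups hold 3 libraries each: scrambled libraries 1, 2 and 3 carried a scrambled control hairpin, and knockdown libraries 1, 2 and 3 carried a short hairpin RNA against Ifit1 (sh-Ifit1). Each of 3 labelled batches holds 1 library of each group. The labels give neither the hairpin sequence, the number of hairpins, the age of the donor animals nor whether the libraries came from separate cultures, so the p-values rest on the spread among these libraries alone, which may be technical. Values per library are given in the order 1, 2 and 3.

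SR proteins carry an RNA recognition motif and a domain rich in arginine and serine, and as background they bind exonic enhancers and recruit the spliceosome to nearby splice sites. hnRNPs coat nascent transcripts through RNA recognition, K homology or RGG motifs, and many of them silence exons or compete with SR proteins. Both families also act in mRNA export, stability and translation, and many of their genes keep their own protein in balance through alternative exons that send the transcript to nonsense-mediated decay.

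Ifit1, the interferon-induced gene targeted by the hairpin, stood at 4.90, 3.75 and 4.97 FPKM (fragments per kilobase per M fragments) in scrambled and at 1.76, 1.48 and 1.51 FPKM in knockdown libraries. The groups did not overlap, and its log2 fold change of −1.27 ± 0.11 (SE) passed the threshold (limma adjusted p = 5.71e-05). Libraries held 32.2 to 40.6 M recovered fragments, and a tested SR protein or hnRNP gene had between 1892 (Hnrnph3) and 60009 (Hnrnpa1) fragments in a library, so counting error was small for them. More genes were listed at 0 in knockdown (3476 to 3868) than in scrambled libraries (3013 to 3188), and the summed FPKM was 389838 to 392721 against 378147 to 380385. Of 12 mesenchymal stromal markers, 11 were tested, of which 3 were higher and 7 lower in knockdown. Nt5e was too low to be tested, with means of 0.234 FPKM in scrambled and 0.206 FPKM in knockdown libraries. The summed level of the 12 was 2700 to 3036 FPKM in scrambled and 1710 to 1999 FPKM in knockdown libraries, most of it from Col1a1 and Col1a2. Markers of endothelium summed to at most 0.101 FPKM, those of Schwann or neural cells to at most 0.311 FPKM and those of adipocytes to at most 1.06 FPKM in any library, and haematopoietic markers to 2.73 to 3.39 FPKM in scrambled and 3.90 to 4.23 FPKM in knockdown libraries, mostly Cd14, with Ptprc, Itgam and Cd3e listed at 0 in all scrambled libraries. Epithelial and mesothelial markers, led by Krt19 and Msln, summed to 87.3 to 98.1 FPKM in scrambled and 97.0 to 97.3 FPKM in knockdown libraries, and these 2 genes went opposite ways: Krt19 was higher (68.4 to 80.8 FPKM) and Msln lower (22.5 to 15.4 FPKM) in knockdown. The part of these differences in the values below was not tested. In bulk RNA, fewer cells of a type and less RNA per cell cannot be told apart.

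Transcripts of SR proteins and hnRNPs were abundant, and where they differed in knockdown most were higher, by small amounts. Their median level in scrambled libraries was 92.1 FPKM, against 10.9 FPKM over all tested genes. Of the 30 tested genes, 13 were higher in knockdown, 2 were lower and 15 did not pass the threshold (limma adjusted p under 0.05). The 15 genes called are 50.0% of the family, and over all 10311 tested genes 51.0% were called, so the number of calls alone was at the background. By direction, 43.3% of the family was higher, where 19.8% of all tested genes were, and 6.67% was lower, where 31.1% of all tested genes were. Abundant genes in general were higher more often: among 3304 other tested genes whose mean over the 6 libraries lay in the same range (19.7 to 706 FPKM) 35.4% were higher and 22.8% lower. These genes share the range but were not matched in level. Their median in scrambled libraries was 40.6 FPKM, below the 92.1 FPKM of the family. The median log2 fold change was 0.08 in the family, 0.03 in the genes of that range and −0.05 in all tested genes. These counts describe the family, and its difference from other genes was not tested. With the level and length trend removed, 26.7% of the family was higher, against 29.9% of the genes of that range.

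The differences were narrow and the libraries tight. Log2 fold changes ran from −0.15 (Hnrnpul2) to 0.28 (Hnrnpab), no family member differed by 2-fold, and 7 members differed by at least 10% in mean FPKM: Hnrnpab, Srsf2, Hnrnpm, Srsf6, Hnrnph1, Hnrnpll and Hnrnpa1. The median coefficient of variation within groups was 1.99% for the family (from 0.772% to 3.65%), 3.14% for genes of the same level range and 4.59% for all tested genes. The 3 knockdown libraries lay wholly above the 3 scrambled ones for 15 members and wholly below for 6, and the groups overlapped for 9. That is 70.0% of members without overlap, where 61.1% of all tested genes had none (23.8% higher and 37.3% lower). Among genes of the same level range 67.2% had none, so the members' share was close to theirs. Of all 30 members, 25 had the same sign in each of the 3 batches (83.3%, against 72.6% of all tested genes and 77.1% of genes of that range). All 15 called members did, as did 99.6% of all called genes.

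**Figure D1:**
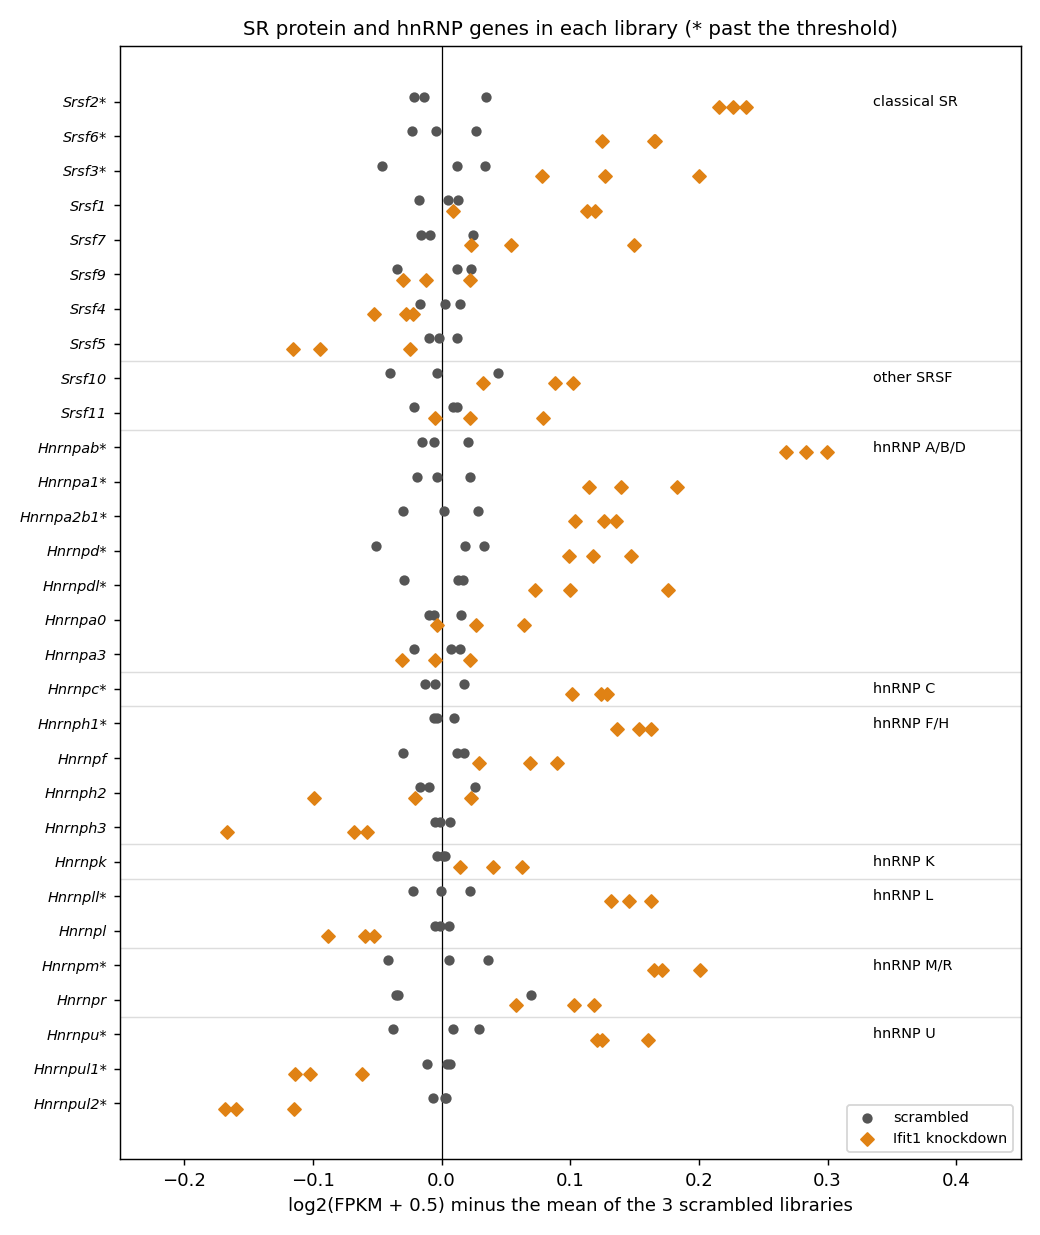
Each row is 1 tested gene, ordered by subfamily, and each point is 1 library: circles for the 3 scrambled and diamonds for the 3 Ifit1 knockdown libraries. The horizontal axis is log2(FPKM + 0.5) minus the scrambled mean, and an asterisk marks the 15 genes past the threshold, 13 to the right of 0 and 2 (Hnrnpul1 and Hnrnpul2) to the left.

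**Figure D2:**
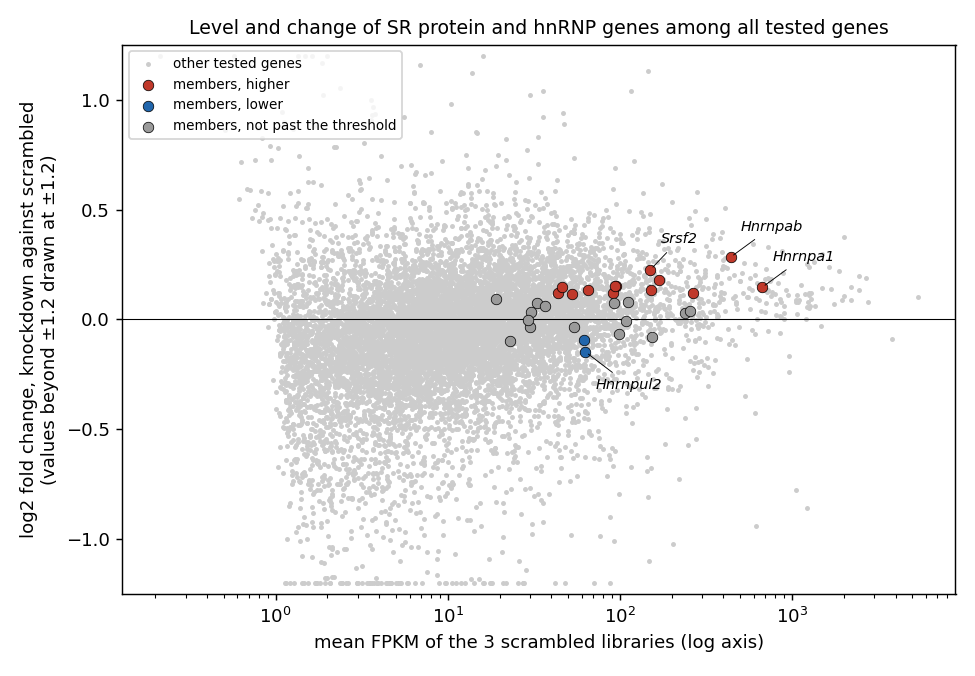
Mean FPKM of the scrambled libraries (log axis) against the log2 fold change for every tested gene (grey), with the 30 tested SR protein and hnRNP genes drawn larger and coloured by call. The family lies at the abundant end of the plot, within a band from −0.15 to 0.28.

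The DNA just before the transcription start is shown for the 3 genes with the largest rise and for Hnrnpul1, the 1 lower gene with an entry in the promoter table, so that the start regions of genes that moved apart can be read side by side. Each sequence is the 250 bases before the RefSeq start on GRCm38.p6, 5′ to 3′ on the strand of the gene. Capitals mark matches, on either strand, to the CCAAT box (letters CCAAT), the GC box (letters GGGCGG) and the TATA box (letters TATAAA). Hnrnpab is at chr11:51606882-51607131 (minus strand), Srsf2 at chr11:116853095-116853344 (minus strand), Hnrnpm at chr17:33685459-33685708 (minus strand) and Hnrnpul1 at chr7:25754760-25755009 (minus strand).
Hnrnpab: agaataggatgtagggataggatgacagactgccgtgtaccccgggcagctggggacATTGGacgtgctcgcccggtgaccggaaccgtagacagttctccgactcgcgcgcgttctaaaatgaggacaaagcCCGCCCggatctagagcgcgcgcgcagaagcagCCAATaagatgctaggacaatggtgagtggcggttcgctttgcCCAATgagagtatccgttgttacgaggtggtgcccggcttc
Srsf2: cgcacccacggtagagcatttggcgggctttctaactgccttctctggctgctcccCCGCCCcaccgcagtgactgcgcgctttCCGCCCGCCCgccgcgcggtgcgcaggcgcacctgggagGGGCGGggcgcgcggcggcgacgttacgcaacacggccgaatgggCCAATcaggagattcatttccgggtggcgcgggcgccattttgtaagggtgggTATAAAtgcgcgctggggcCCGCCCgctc
Hnrnpm: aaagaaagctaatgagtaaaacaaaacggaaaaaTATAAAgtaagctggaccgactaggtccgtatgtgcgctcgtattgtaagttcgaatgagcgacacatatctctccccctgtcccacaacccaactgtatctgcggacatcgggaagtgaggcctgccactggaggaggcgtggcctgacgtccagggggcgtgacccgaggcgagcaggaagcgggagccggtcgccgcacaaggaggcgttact
Hnrnpul1: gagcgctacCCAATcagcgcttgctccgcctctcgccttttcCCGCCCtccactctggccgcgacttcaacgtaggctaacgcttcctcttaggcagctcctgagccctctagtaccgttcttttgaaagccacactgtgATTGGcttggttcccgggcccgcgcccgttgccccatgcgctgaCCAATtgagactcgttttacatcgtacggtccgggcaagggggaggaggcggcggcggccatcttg
Hnrnpab and Hnrnpul1, which moved in opposite directions, each held 3 CCAAT matches and 1 GC box. Srsf2 held 5 GC boxes, of which the pair in the run of 10 capitals shares bases, 1 CCAAT and 1 TATAAA 29 bases before the start. Hnrnpm held neither a CCAAT nor a GC box, and its TATAAA lay 216 bases before the start.

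Across the family, 30 of the 32 genes matched the promoter table, with 42 windows since some genes have several starts, and Hnrnpll and Hnrnpul2 had no entry. GC boxes stood in 78.6% of these windows (33 of 42), against 32.7% of all 32851 windows in the table, and CCAAT in 50.0% (21 of 42) against 33.8%. The ETS motif CCGGAAG stood in 21.4% (9 windows of 6 genes) against 6.91%. The median GC content of the family's windows was 68.0%, against 52.4% of all windows, and the part of base composition in these shares was not tested. An E-box (CACGTG) was in 7.14% of the family's windows against 6.02% of all, TATAAA in 9.52% against 12.4%, and the C/EBP-ATF response element TGATGNAA in 4.76% (2 windows of Hnrnpa2b1) against 3.45%. The core of the interferon-stimulated response element, GAAANNGAA, was in 2.38% (1 window, of Hnrnph2) against 7.13%, and the cyclic AMP response element TGACGTCA was in none of the 42, against 1.55%. All motifs were searched on both strands and overlapping matches each counted, and a match is a description of the letters only.

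Among the SR proteins, 3 of 10 tested genes were higher in knockdown and none was lower, with a median log2 fold change of 0.07. That is 30.0% higher, where 19.8% of all tested genes and 35.4% of genes of the family's level range were. Median centring gave 7 higher and none lower (70.0% higher, against 49.9% of genes of that range). The other 3 scalings each gave 2 higher and 1 lower. That is 20.0% higher, against 26.9% (TPM), 29.0% (quantile normalization) and 29.9% (level and length trend removed) of genes of that range. The 3 were Srsf2, Srsf6 and Srsf3, all of the 8 classical members, and neither of the 2 tested others (Srsf10 and Srsf11) passed. Summed over all Srsf genes, the scrambled libraries held 957, 954 and 958 FPKM and the knockdown libraries 989, 1008 and 1040 FPKM.

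Srsf2 (Entrez 20382), also known as SC35, which binds exonic enhancers and marks nuclear speckles, stood at 149, 154 and 148 FPKM in scrambled and 176, 175 and 177 FPKM in knockdown libraries. Every knockdown library was above every scrambled one, and the mean went from 150.5 ± 3.21 to 176 ± 1.32 FPKM (SD, n = 3 each). This was a log2 fold change of 0.23 ± 0.03 (SE, limma adjusted p = 0.000219), with 0.24, 0.18 and 0.26 within batches 1, 2 and 3. Srsf6 (Entrez 67996), an SR protein with a pair of RNA recognition motifs, stood at 96.4, 93.2 and 94.4 FPKM in scrambled and 103, 106 and 106 FPKM in knockdown libraries. Its log2 fold change was 0.15 ± 0.03 (adjusted p = 0.00207). Again the groups were apart.

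Srsf3 (Entrez 20383), the smallest SR protein, which also acts in mRNA export, stood at 155, 147 and 153 FPKM in scrambled and 159.8, 165 and 174 FPKM in knockdown libraries. Knockdown library 1 was close to the scrambled range: the log2 difference was 0.04 in batch 1, 0.17 in batch 2 and 0.19 in batch 3. The fitted change was 0.14 ± 0.04 (limma adjusted p = 0.0147). It was the least stable rise among the SR proteins, since its adjusted p was 0.0681 after rescaling to TPM, 0.407 under quantile normalization, 0.128 with the level and length trend removed, 0.0502 without the filter and 0.0556 without scrambled library 2.

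Srsf1 (Entrez 110809), the archetypal splicing activator of the family, did not pass. It stood at 112, 112 and 109.9 FPKM in scrambled and 112, 120.4 and 121 FPKM in knockdown libraries, so that knockdown library 1 lay among the scrambled ones and the other two lay above them. The log2 fold change was 0.08 ± 0.03 with a 95% interval from 0.00 to 0.16 (limma adjusted p = 0.0804), and 0.12 (adjusted p = 0.0136) without knockdown library 1. Srsf1 also passed under median centring (adjusted p = 0.00599) and limma-voom (0.0435). Srsf7, which resembles Srsf3, had 0.08 with an interval from −0.01 to 0.16 (adjusted p = 0.113). Srsf10 (Entrez 14105), a splicing repressor when dephosphorylated, stood at 34.1, 32.1 and 32.9 FPKM in scrambled and 33.8, 35.1 and 35.5 FPKM in knockdown libraries, with overlapping groups and a log2 fold change of 0.07 from −0.01 to 0.16 (adjusted p = 0.114). For Srsf11 it was 0.03 from −0.05 to 0.11, and for Srsf9 −0.01 from −0.07 to 0.06.

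Srsf5 and Srsf4, which like Srsf6 carry a pair of RNA recognition motifs, had values below 0. Srsf5 (Entrez 20384) stood at 154, 154 and 156 FPKM in scrambled and 145, 143 and 152 FPKM in knockdown libraries. The groups did not overlap, but the log2 fold change of −0.08 ± 0.03, with an interval from −0.15 to −0.01, did not pass (limma adjusted p = 0.0552). It passed with the batch as a replicate block (adjusted p = 0.0431) and without knockdown library 3 (adjusted p = 0.0115). Srsf4 had −0.03 from −0.10 to 0.03, also without overlap of the groups.

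Of 20 tested hnRNP genes, 10 were higher and 2 lower, with a median log2 fold change of 0.10. That is 50.0% higher, against 19.8% of all tested genes and 35.4% of genes of the family's level range, of which 31.1% and 22.8% were lower. Median centring gave 14 higher and 1 lower, and removing the level and length trend 6 higher and 3 lower. All Hnrnp genes together summed to 2824, 2837 and 2794 FPKM in scrambled and 3059, 3050 and 3091 FPKM in knockdown libraries. As a share of each library's summed FPKM this was 0.742%, 0.748% and 0.739% against 0.779%, 0.782% and 0.790%, without overlap. Abundant genes weigh most in this sum: the mean of Hnrnpab went from 440 to 536 FPKM and that of Hnrnpa1 from 670 to 742 FPKM. Such shares were not computed for other gene sets. The share taken by the Srsf genes, 0.2517%, 0.2517% and 0.2534% against 0.2518%, 0.2586% and 0.2658%, did overlap between groups.

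The A/B/D subfamily, abundant proteins with a pair of RNA recognition motifs, held 5 of the rises among its 7 genes and no fall. That is 71.4% higher, against 19.8% of all tested genes and 35.4% of genes of the family's level range. Median centring gave 6 higher (85.7%, against 49.9% of genes of that range). Each of the other 3 scalings gave 3 higher, with no fall under any. That is 42.9%, against 26.9% (TPM), 29.0% (quantile normalization) and 29.9% (trend removed) of genes of that range. Hnrnpab (Entrez 15384), which binds RNA and single-stranded DNA, had the largest rise of all. It stood at 446, 438 and 435 FPKM in scrambled and 536, 530 and 542 FPKM in knockdown libraries. The mean went from 440 ± 5.68 to 536 ± 5.87 FPKM (SD, n = 3 each), a ratio of 1.22. The gap between the groups was far wider than the spread within them, and the log2 fold change was 0.28 ± 0.02 with a 95% interval from 0.23 to 0.34 (limma adjusted p = 5.31e-05). Within batches 1, 2 and 3 it was 0.26, 0.27 and 0.31.

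Hnrnpa1 (Entrez 15382), the best known silencer of exons and the most abundant transcript of the family, stood at 661, 681 and 669 FPKM in scrambled and 738, 726 and 761 FPKM in knockdown libraries. The groups were apart, and the log2 scale put the rise at 0.15 ± 0.03 (limma adjusted p = 0.00201). Hnrnpa2b1, its close relative, went from 265 ± 5.39 to 289 ± 3.24 FPKM (0.12, adjusted p = 0.00421). Hnrnpd, also known as AUF1, which binds AU-rich elements and speeds mRNA decay, went from 44.0 ± 1.37 to 47.9 ± 0.821 FPKM (0.12, adjusted p = 0.0152). Hnrnpdl, its paralog, went from 53.0 ± 0.945 to 57.5 ± 2.18 FPKM (0.12, adjusted p = 0.0219). The calls of these last 2 genes were fragile: Hnrnpd was at adjusted p = 0.0505 without scrambled library 3 and 0.0502 without knockdown library 1, and Hnrnpdl at 0.0506 without scrambled library 1, 0.0699 without scrambled library 3 and 0.0533 without knockdown library 3. Hnrnpa0 and Hnrnpa3 did not pass, with log2 fold changes of 0.03 (interval −0.03 to 0.09) and −0.00 (interval −0.08 to 0.07).

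Hnrnpc (Entrez 15381), which binds uridine tracts and packages nascent RNA, stood at 91.3, 92.8 and 90.8 FPKM in scrambled and 98.4, 99.9 and 100.2 FPKM in knockdown libraries. The groups were apart, with a log2 fold change of 0.12 ± 0.03 (limma adjusted p = 0.00495).

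The F/H subfamily, which binds runs of guanines, split. Hnrnph1 (Entrez 59013) stood at 94.2, 93.4 and 93.2 FPKM in scrambled and 103, 104 and 105 FPKM in knockdown libraries, with a log2 fold change of 0.15 ± 0.02 (limma adjusted p = 0.00127). It was the tightest gene of the family within groups. Its paralog Hnrnph2 had −0.03 (interval −0.12 to 0.05) and Hnrnpf 0.06 (interval −0.01 to 0.14), and neither passed. Hnrnph3, the least abundant of the subfamily, stood at 22.9, 23.1 and 23.0 FPKM in scrambled and 20.5, 21.9 and 22.1 FPKM in knockdown libraries. It lay below in all 3 knockdown libraries and did not pass (−0.10, interval −0.19 to −0.01, adjusted p = 0.0630). It did pass without knockdown library 3 (adjusted p = 0.0430) and after rescaling to TPM (−0.14, adjusted p = 0.0160).

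Hnrnpk (Entrez 15387), which binds C-rich RNA and DNA through K homology domains, stood at 254, 255 and 255 FPKM in scrambled and 258, 266 and 262 FPKM in knockdown libraries. All knockdown libraries were above all scrambled ones, but the difference was too small to pass (0.04, interval −0.02 to 0.09, limma adjusted p = 0.204).

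The L pair differed in direction, and only Hnrnpll passed. Hnrnpll (Entrez 72692), known for silencing exons of the CD45 transcript in lymphocytes, stood at 46.6, 45.9 and 45.2 FPKM in scrambled and 51.4, 50.3 and 50.8 FPKM in knockdown libraries, and it rose by 0.15 ± 0.03 on the log2 scale (limma adjusted p = 0.00296). Hnrnpl (Entrez 15388), which binds CA repeats, stood at 98.4, 99.1 and 98.7 FPKM in scrambled and 94.8, 92.9 and 95.2 FPKM in knockdown libraries. Its groups did not overlap, in the other direction, and the log2 fold change of −0.07 (interval −0.12 to −0.01) missed the threshold (adjusted p = 0.0538). Under median centring the change of Hnrnpl was −0.00073 (adjusted p = 0.987).

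Hnrnpm (Entrez 76936), which binds GU-rich RNA, had the third largest rise. It stood at 170.0, 174 and 164.5 FPKM in scrambled and 195, 189.9 and 191 FPKM in knockdown libraries, with a log2 fold change of 0.18 ± 0.03 (limma adjusted p = 0.00103). Hnrnpr stood at 20.0, 18.6 and 18.6 FPKM in scrambled and 19.8, 20.5 and 20.7 FPKM in knockdown libraries. Knockdown library 1 lay within the scrambled range, and the change of 0.09 (interval −0.00 to 0.19) did not pass (adjusted p = 0.0888), while it did without scrambled library 1 (0.13, adjusted p = 0.0422). Hnrnpr also passed under median centring (adjusted p = 0.00945), quantile normalization (0.0434) and limma-voom (0.0406).

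The U subfamily, large nuclear proteins with a SAP domain, was the only subfamily with falls past the threshold, and its members went opposite ways. Hnrnpu (Entrez 51810), also known as scaffold attachment factor A, stood at 65.6, 66.5 and 63.5 FPKM in scrambled and 72.9, 71.1 and 71.0 FPKM in knockdown libraries (0.14 ± 0.03, limma adjusted p = 0.00536). Hnrnpul2 (Entrez 68693) stood at 63.2, 62.8 and 63.3 FPKM in scrambled and 56.4, 58.3 and 56.1 FPKM in knockdown libraries. Its mean went from 63.1 ± 0.259 to 56.9 ± 1.16 FPKM (SD, n = 3 each), with a log2 fold change of −0.15 ± 0.03 with an interval from −0.21 to −0.08 (adjusted p = 0.00267).

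Hnrnpul1 (Entrez 232989), which like Hnrnpul2 acts in the resection of DNA breaks, stood at 62.0, 61.2 and 61.9 FPKM in scrambled and 57.5, 59.1 and 57.0 FPKM in knockdown libraries. The groups were apart and the log2 scale put the fall at −0.09 ± 0.03 (limma adjusted p = 0.0231). This call was lost without scrambled library 1 (adjusted p = 0.0748), scrambled library 3 (0.0573), knockdown library 1 (0.0615) or knockdown library 3 (0.0539).

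Srsf12 and Hnrnpa1l2-ps2 were near the limit of detection. Srsf12 had 0, 1 and 2 fragments in scrambled libraries and 0 in each knockdown library, where 3 fragments would be 0.0233 to 0.0293 FPKM. Hnrnpa1l2-ps2, by its name a pseudogene related to Hnrnpa1, with which its reads may be shared, had 2, 2 and 1 fragments in scrambled and 1, 2 and 8 fragments in knockdown libraries. No fold is given for either.

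Ratios of related genes within a library do not change when a whole library is multiplied by 1 factor, as in rescaling to TPM. Of 20 such pairs, 14 had groups that did not overlap, with exact permutation p = 0.1, the smallest that 3 libraries against 3 allow (two-sided), and adjusted values over the 20 pairs from 0.143 to 0.9. These pairs therefore could not pass a threshold of 0.05 in this design. Several pairs share a gene, so the 20 are not independent. No share over other gene pairs was computed, and of single tested genes 61.1% had groups without overlap. The count of 14 is therefore a description of these pairs only. The level of Hnrnpu per level of Hnrnpul2 was 1.04, 1.06 and 1.00 in scrambled and 1.29, 1.22 and 1.26 in knockdown libraries, a log2 difference of 0.29. Hnrnph1 per Hnrnph3 was 4.11, 4.04 and 4.05 against 5.04, 4.75 and 4.75, a difference of 0.25. Both ratios were higher in every knockdown library than in any scrambled one. Hnrnpu and Hnrnph1 lay wholly above and Hnrnpul2 and Hnrnph3 wholly below in knockdown. These ratios therefore had to separate, and their separation adds nothing to the values of the single genes.

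Among SR proteins, Srsf6 per Srsf5 was 0.628, 0.603 and 0.605 in scrambled and 0.713, 0.744 and 0.698 in knockdown libraries, a log2 difference of 0.23, and Hnrnpll per Hnrnpl was 0.473, 0.463 and 0.458 against 0.542, 0.5415 and 0.534. Both again separated the groups, as they had to, since Srsf6 and Hnrnpll lay wholly above and Srsf5 and Hnrnpl wholly below in knockdown. The ratios of Hnrnpa1 to Hnrnpa2b1, Hnrnpd to Hnrnpdl, Hnrnpm to Hnrnpr, Srsf5 to Srsf4, Srsf1 to Srsf9 and Srsf10 to Srsf11 overlapped. The level of all hnRNP genes per level of all SR protein genes was 2.95, 2.97 and 2.91 in scrambled and 3.09, 3.03 and 2.97 in knockdown libraries, and these overlapped too. Quantile normalization and removal of the trend act on each gene by its level and do change such ratios: the log2 difference of Hnrnpu per Hnrnpul2 was 0.27 and 0.26 under them and that of Srsf3 per Srsf7 0.015 and 0.040, and Hnrnpa1 per Hnrnpa2b1 turned to −0.029 under the first.

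**Figure D3:**
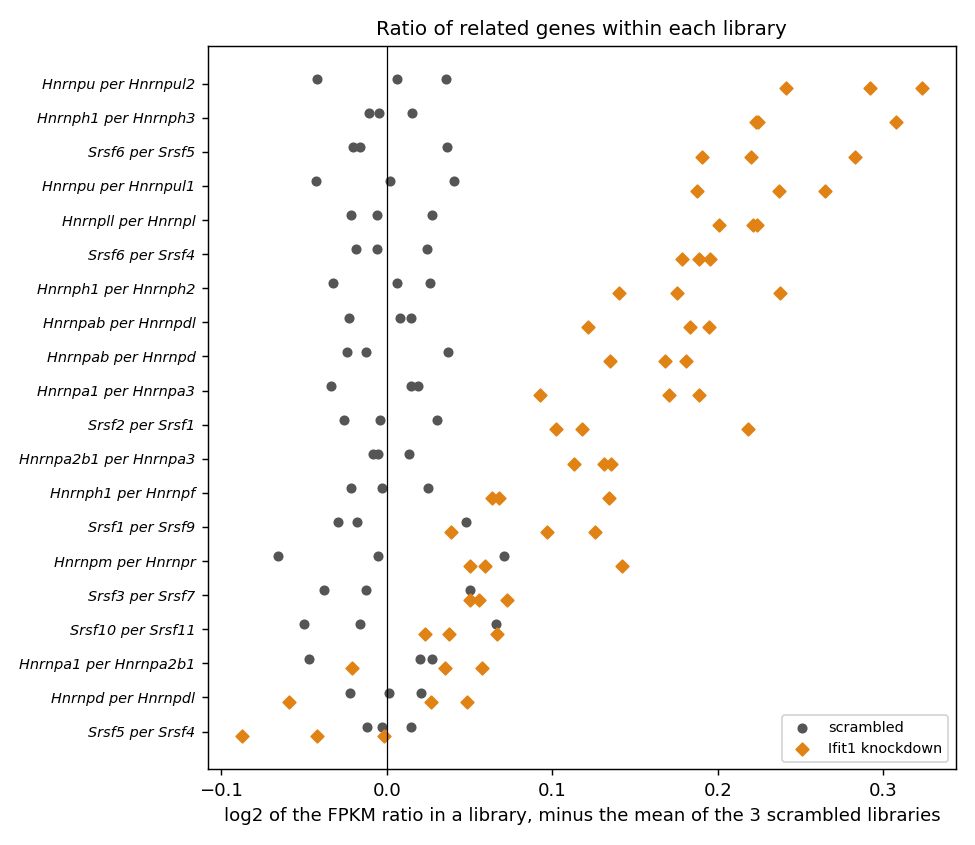
Each row is a pair of related genes, and each point is the log2 ratio of their FPKM in 1 library minus the scrambled mean: circles for the 3 scrambled, diamonds for the 3 knockdown libraries. Hnrnpu per Hnrnpul2 shows the widest shift (0.29), and 14 of the 20 pairs have no overlap of the groups. Several pairs share a gene, and no share over other gene pairs was computed.

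How many members passed depended on how libraries were scaled to each other, while the calls of 6 higher genes and 1 lower gene did not. Rescaled to TPM, 10 members were higher and 5 lower, where 14.9% and 39.1% of all tested genes were. Among other genes of the family's level range these shares were 26.9% and 31.2%. With median centring, 21 were higher and 1 lower, where 29.1% and 22.2% of all tested genes and 49.9% and 15.2% of the genes of that range were. Quantile normalization gave 11 higher and 4 lower (24.1% and 21.9% of all tested genes, 29.0% and 25.8% of the genes of that range). Removing the trend with level and length gave 8 higher and 4 lower (24.7% and 22.4% of all, 29.9% and 26.8% of that range). There the family's share of rises, 26.7%, lay between 24.7% and 29.9%. Under each of these 4 scalings the median change of the family was above 0 (0.03, 0.14, 0.04 and 0.04), as it was for the deposited FPKM. In the same order it was −0.012, 0.099, 0.0086 and 0.0078 in genes of that range. Hnrnpab, Srsf2, Hnrnpm, Srsf6, Hnrnph1 and Hnrnpll stayed higher and Hnrnpul2 stayed lower under all 17 alternatives tried. For Hnrnpab the log2 fold change ran from 0.19 to 0.35 over them, for Srsf2 from 0.13 to 0.29 and for Hnrnpul2 from −0.19 to −0.08.

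The other calls each changed under some scaling. Hnrnpa1 missed the threshold under quantile normalization (adjusted p = 0.0512), and Hnrnpu, Hnrnpa2b1 and Hnrnpc did with the trend removed (0.0632, 0.178 and 0.0679). Hnrnpd and Hnrnpdl missed it after rescaling to TPM (0.0738 and 0.109), and Hnrnpul1 under median centring (−0.03, adjusted p = 0.490). In the other direction, Srsf5 passed as lower after rescaling to TPM (0.00781), under quantile normalization (0.00201) and with the trend removed (0.00867). Hnrnpl did so too (0.00541, 0.00570 and 0.00464), and Hnrnph3 did after rescaling to TPM (0.0160). All these adjusted p are by limma.

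**Figure D4:**
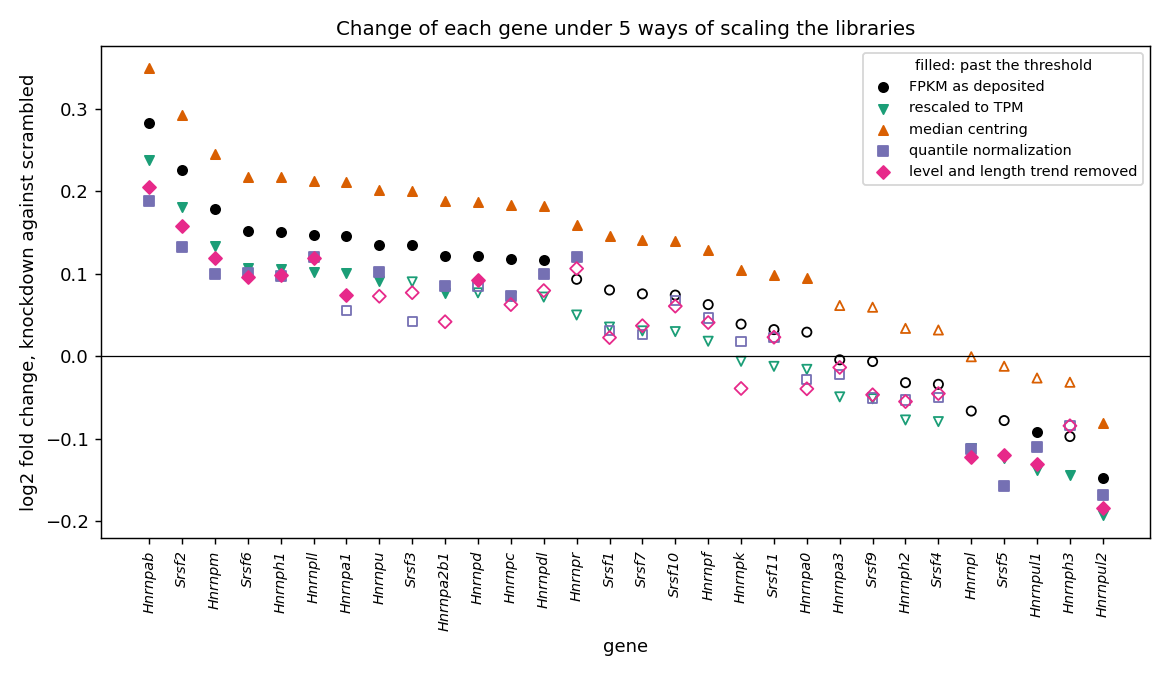
Log2 fold change of each of the 30 tested genes, ordered by the value from FPKM as deposited, under 5 scalings of the libraries (marker shapes), filled where the gene passed the threshold. Hnrnpab and Srsf2 at the left and Hnrnpul2 at the right are filled under every scaling, while genes in the middle change sign or call.

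The annotation of these genes bears on what a gene-level FPKM holds. In GENCODE M21 on GRCm38, 19 of the 30 tested members (63.3%) have an annotated transcript that is subject to nonsense-mediated decay, against 30.2% of 9845 matched tested protein-coding genes. The share is 90.0% for the Srsf genes (9 of 10) and 50.0% for the Hnrnp genes (10 of 20). Of the 19 members with such a transcript 9 were higher and none lower, and of the 11 without one 4 were higher and 2 lower. Over all tested genes 19.8% were higher and 31.1% lower. Those shares were not computed apart for genes with and without such a transcript, and a link between it and the changes was not tested. A transcript with a retained intron is annotated for 22 members (73.3%, against 62.5%). The deposited values are per gene, so a change in the share of these transcripts was not analysed here.

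In that annotation 7 tested members overlap another protein-coding gene, and the sources used here do not give the strand setting of the counting. Hnrnpab overlaps Phykpl on the opposite strand, which averaged 2.32 FPKM in scrambled and 2.60 FPKM in knockdown libraries (limma adjusted p = 0.213), and Srsf2 overlaps Mettl23 and Mfsd11, which averaged 7.94 and 6.98 FPKM in scrambled and 7.99 and 6.36 FPKM in knockdown libraries. Both neighbourhoods were far below the level of the member. Hnrnpm, Hnrnpul2, Hnrnpu, Hnrnph3 and Hnrnpk also overlap another gene.

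Other genes of splicing were read from 10 lists, of which 146 genes were tested: 56 were higher and 22 lower, with a median log2 fold change of 0.05. That is 38.4% higher and 15.1% lower, against 19.8% and 31.1% of all tested genes and 35.4% and 22.8% of genes of the family's level range, and no difference of a list from other genes was tested. The lists were not limited to that range. Their median levels in scrambled libraries ran from 11.4 FPKM (nonsense-mediated decay) to 149 FPKM (Sm proteins). Of 7 tested Sm proteins, the ring that binds the small nuclear RNAs, 5 were higher and none lower, among them Snrpb, which went from 165 to 198 FPKM (0.26, limma adjusted p = 0.000248), Snrpd3 (174 to 203 FPKM, 0.22) and Snrpf (149 to 175 FPKM, 0.23). Of 18 U1, U2 and U2AF genes, which recognise splice sites, 12 were higher and 2 lower. Phf5a (54.5 to 66.1 FPKM, 0.28), Sf3b4 (81.1 to 96.5 FPKM, 0.25) and Sf3a2 (56.3 to 66.8 FPKM, 0.24), all of the U2 particle, had the smallest p. Of 21 genes of the U4/U6.U5 and Prp19 complexes 13 were higher and 1 lower, led by Snu13 (167 to 212 FPKM, 0.34, adjusted p = 4.16e-05), Ddx23 (66.7 to 77.2 FPKM, 0.21) and Usp39 (39.0 to 47.5 FPKM, 0.28).

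The exon junction complex, which marks spliced mRNA, had 6 of 9 genes higher and none lower: Rnps1, itself an SR-related protein, went from 87.7 to 103 FPKM (0.24, limma adjusted p = 0.000265), Magoh from 81.0 to 93.4 FPKM (0.21) and Eif4a3 from 116 to 130.2 FPKM (0.17). Of 10 genes of nonsense-mediated decay 2 were higher, Smg5 (41.7 to 50.8 FPKM, 0.28) and the helicase gene Upf1 (35.2 to 40.1 FPKM, 0.18), and 2 lower, of which the endonuclease gene Smg6 went from 7.89 to 6.64 FPKM (−0.23, adjusted p = 0.00842, but 0.0568 under quantile normalization and 0.0712 with the trend removed). This list's balance depended on the scaling, with 5 higher and none lower under quantile normalization, 4 and none with the trend removed, 4 and 1 under median centring and 2 and 3 after rescaling to TPM. Arginine methyltransferases, which modify the RGG motifs of hnRNPs, had 5 of 8 higher and 1 lower, with Prmt1 at 179 and 203 FPKM (0.18), Prmt5 at 67.0 and 77.9 FPKM (0.22) and Prmt6 at 7.65 and 9.57 FPKM (0.31) in scrambled and knockdown libraries.

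Of 11 SR protein kinases and import factors 1 was higher and 1 lower. Srpk2, a kinase that phosphorylates SR proteins in the cytoplasm, went from 6.16 to 4.60 FPKM (−0.39, limma adjusted p = 0.00199), and Srpk1, its paralog, from 28.6 to 30.9 FPKM (0.11, adjusted p = 0.0291), a call lost under 8 alternatives. The import factor gene Tnpo2 had 31.4 and 33.6 FPKM (0.10, adjusted p = 0.0648). Of 23 SR-related genes 1 was higher, Arglu1 (23.8 to 26.7 FPKM, 0.16), and 5 were lower, among them Rsrp1 (56.9 to 49.5 FPKM, −0.20) and Srrm2, a scaffold of nuclear speckles (64.1 to 58.8 FPKM, −0.12, lost under median centring with adjusted p = 0.153). Under median centring this list turned to 4 higher and 1 lower.

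RNA-binding proteins of the hnRNP type under other names were mixed, with 8 higher and 5 lower of 20. Ptbp1, the polypyrimidine tract-binding protein also called hnRNP I, went from 242 to 273 FPKM (0.17, limma adjusted p = 0.000786) and Pcbp4 from 58.7 to 69.5 FPKM (0.24), while Msi1 went from 2.39 to 1.13 FPKM (−0.83, adjusted p = 6.32e-05). Other splicing regulators had 3 of 19 higher and 5 lower, with Khdrbs3 from 4.25 to 2.54 FPKM (−0.65), Mbnl1 from 25.2 to 28.8 FPKM (0.18) and Rbm5 from 32.1 to 28.3 FPKM (−0.18). After rescaling to TPM the hnRNP-type list had 5 higher and 7 lower, and under median centring the other regulators had 9 higher and 3 lower. The Sm, U1 and U2, U4/U6.U5, exon junction and methyltransferase lists had more rises than falls under every scaling. Of the genes that the deposited table annotates to the KEGG spliceosome, the SR proteins and hnRNPs left out, 111 were tested, 55 higher and 8 lower (49.5% and 7.21%, where 19.8% and 31.1% of all tested genes were), with a median of 0.09. Among genes of the family's level range 35.4% were higher and 22.8% lower, and the KEGG genes (median 43.7 FPKM in scrambled libraries) were not limited to that range. The KEGG set was counted on FPKM as deposited only.

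**Figure D5:**
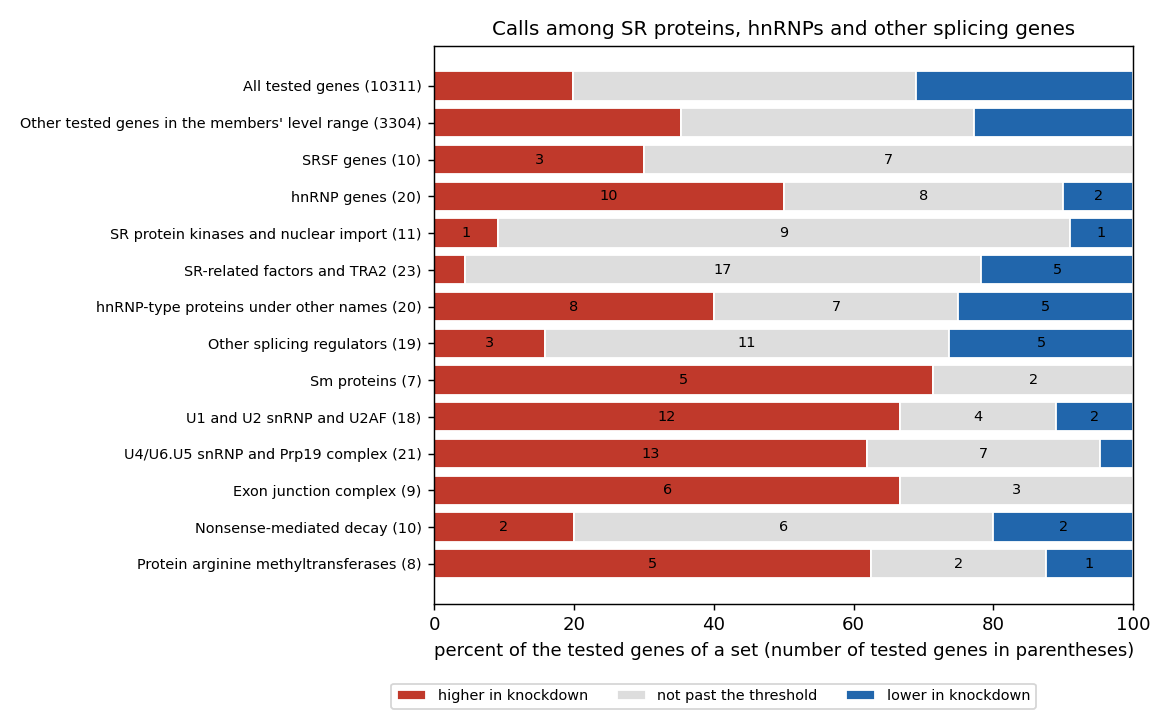
Share of the tested genes of each set that were higher (left), not past the threshold (middle) or lower (right) in knockdown, with gene numbers in the bars. All tested genes and those in the family's level range stand at the top for comparison, and the bars of the Sm and exon junction lists hold no falls.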

How the data were processed

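The authors deposited 1 table of FPKM per gene and library, with an Entrez number and annotation of each gene. Per the labels' protocols, mRNA was captured on beads from total RNA and fragmented by heat. GRCm38, mm10 and GRCm39 appear in the submitters' processing notes without a role. The sources used here do not give the aligner, counting tool or strand setting. FPKM are not counts, so genes with at least 1 FPKM in at least 3 of the 6 libraries were tested on log2(FPKM + 0.5) with limma 3.58.1 in R 4.3.3 (two-sided, variance trend, Benjamini-Hochberg over 10311 genes, threshold 0.05). This scale understates changes of low genes. Whole fragments were recovered for 19877 of 19877 genes within 0.002 of a whole number, which gives depth and the limma-voom alternative; a gene above 0 in few libraries fits almost always. The fit was tested on simulated data.

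The members follow from gene names, but the family, like the gene lists and markers, was chosen with earlier results of these data known. Values in every library are given for the largest rises and falls, the most abundant member of each subfamily and Ifit1, with up to 3 genes of smallest p per list. Of the members outside that rule, Srsf1, Srsf3, Srsf5, Hnrnph3 and Hnrnpr were given per library after their values were seen. The labels' batch number pairs the libraries, and deviations of same-numbered libraries correlated at 0.0860, 0.0121 and 0.189 in batches 1, 2 and 3. The 17 alternatives were 2 pseudocounts (0.1 and 1), no filter, a mean of at least 5 FPKM, 4 scalings, limma without the trend, limma-voom, the replicate block and 6 fits without 1 library. Promoters are from RefSeq; gene models from GENCODE M21.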

Additional observations from a re-analysis of the deposited data

How the results depend on the processing

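Of the 13 higher members 6 kept their call in all 17 alternatives, as did 1 of the 2 lower ones. Of the 15 others 0 kept both call and sign in all. Among these, Hnrnpa3, Srsf9, Hnrnph2 and Srsf4 changed in sign only and stayed short of the threshold throughout. Against 13 higher and 2 lower, median centring gave 21 and 1, rescaling to TPM 10 and 5 and quantile normalization 11 and 4. Removal of the level and length trend gave 8 higher and 4 lower, limma without the trend 12 and 1, limma-voom 15 and 3 and no filter 12 and 3. Without each library in turn 11 to 13 were higher and 1 to 3 lower. The replicate block, the fit with the batch as a term, gave 13 higher and 3 lower; it changed the call of Srsf5 and of no other member. Against 56 higher and 22 lower genes of the 10 lists, TPM gave 43 higher and 34 lower and median centring 79 higher and 11 lower. Leaving out a library gave 48 to 58 higher and 14 to 25 lower. Signs turned for 7 members near 0: Hnrnpk (−0.0063 with TPM, −0.039 with the trend removed), Srsf11 (−0.012 with TPM), Hnrnpa0 (−0.016 with TPM, −0.029 with quantile normalization, −0.040 with the trend removed), Hnrnpa3 (0.061 with median centring, and from −0.018 to 0.0088 without each library in turn), Srsf9 (0.059 with median centring, −0.024 to 0.0051 without a library), Hnrnph2 (0.034 with median centring, −0.060 to 0.0011 without a library) and Srsf4 (0.032 with median centring). The libraries whose removal turned the sign were scrambled library 1 and knockdown library 1 for Hnrnpa3, scrambled library 2 and knockdown library 1 for Srsf9, and knockdown library 1 for Hnrnph2. The scalings moved the median of all genes by at most 0.066 on the log2 scale, close to the size of many member changes. The cause of these shifts was not tested. Changes of protein, phosphorylation and isoform were not measured.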
